A study of Sus scrofa with 92 samples.

Results

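Hearts of Chinese pigs were compared with hearts of Western pigs in 9 RNA-seq libraries, out of 92 libraries in the whole series. The 9 are all libraries labelled heart, 1 per breed, and were divided by breed. Bamei, Jinhua, Meishan and Rongchang formed the Chinese group (n = 4), and Berkshire, Hampshire, Landrace, Large White and Piétrain formed the Western group (n = 5). The breed comes from the labels and the origin of the breed from general knowledge. All pigs were 60 days old, and the labels give no treatment, no region of the heart and no number of animals behind a library. The other tissues used for comparison of the same breeds were ovary, subcutaneous adipose, the skeletal muscles longissimus dorsi and psoas major, and liver, kidney, spleen and lung. Breeds served as replicates, so the p-values measure the spread between these breeds, which mixes breed, animal and library. The exception is an alternative fit whose spread was pooled over all single-tissue libraries. Levels were deposited as FPKM, a fragment count normalised to the length of the gene and to the total of the library, and were scaled here between libraries by median ratios. Differences are Chinese minus Western on log2(scaled FPKM + 1), which understates the change of genes with low levels. Folds were taken from these differences unless said otherwise, so they are ratios on the scale of scaled FPKM + 1.

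The heart draws most of its energy from fatty acids, and pyruvate from glucose and lactate enters its mitochondria through the pyruvate dehydrogenase complex. Pyruvate dehydrogenase kinases (PDK1 to PDK4) phosphorylate that complex and switch it off, and PDK1 is a classical target of the hypoxia-inducible factors. The MICOS complex shapes the folds of the inner mitochondrial membrane, the cristae, where the respiratory chain sits, and APOOL is one of its subunits. SPIRE proteins start actin filaments and act together with formins.

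Total FPKM per heart library ran from 860191 to 2196138, and 11299 to 12016 genes reached 1 FPKM. A single gene held 52.6% of the total in the Large White heart and 32.8% in the Jinhua heart, so the fit was also run without these libraries. The Berkshire heart had the highest summed level of skeletal muscle genes (16310 scaled FPKM, 6113 to 8824 in the other 8), almost all of it ACTA1. At low levels, MYH8 (1.64), MYL11 (4.90), ATP2A1 (0.636), MYBPC1 (0.324) and TNNC2 (2.72) of that list were also highest in Berkshire. The next highest hearts held 0.186, 1.31, 0.0933, 0.0549 and 2.45. MYL1, MYBPC2, CA3, PYGM and PVALB were higher in another heart. The Berkshire heart also had the highest sum of the smooth muscle list (3267, 1566 to 2209 in the others), of which DES held 2767 and CNN1 179.7. ACTA2, TAGLN and MYH11 of that list were not highest in Berkshire (57.7, 80.0 and 3.35, with Western maxima of 68.9, 101.6 and 6.35). The heart muscle list summed to 20715 to 28491 in Chinese and 18717 to 26258 in Western hearts, and the myogenic factors MYOD1 and MYF6 were listed at 0 in all 9. The list of atrial genes summed to 460.5 in Berkshire, of which NPPB held 365.8, and to 82.5 to 183.4 in the other 8. The list of ventricular genes summed to 6871 to 10030 in Chinese and 6468 to 8452 in Western hearts. Some lung and liver genes stood out at low levels in single hearts. SFTPC of the lung list was at 3.55 in Bamei and 4.46 in Jinhua, and at most 0.497 in the others. NAPSA of that list was highest in Meishan (6.51). ALB, APOC3 and AHSG of the liver list were highest in Hampshire (4.56, 3.23 and 1.16), while APOA2 and FGG were not. The source of these levels was not tested. Of 9 hearts, 6 were closest in rank correlation to a heart of their own origin.

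The spleen library labelled Berkshire went against its label. For 16 genes that differed by origin both in heart and in the mean of the other tissues other than spleen, it lay nearer the Chinese spleens in 16 of 16, while each of the other 79 libraries of these breeds, hearts included, lay nearer its own origin in 11 to 16. SNCG, for example, was at 0.331 scaled FPKM in the library labelled Berkshire spleen, at 4.33 to 9.21 in the other Western spleens and at 0.260 to 0.642 in the Chinese spleens. GBP1 was at 11.8 in it, at 1.88 to 3.05 in the other Western spleens and at 9.14 to 14.6 in the Chinese spleens. The genes were chosen on the hearts and on 6 other tissues, all but spleen and lung. For those libraries the nearness to their own origin was partly built in, so the genes do not check their labels, those of the hearts included. Results from the other tissues are therefore given with and without spleen.

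The hearts of the 2 groups differed at few genes. Among 12161 genes with at least 1 FPKM in 3 or more hearts, 28 (0.23%) passed limma at an adjusted p below 0.05, 15 higher (0.123%) and 13 lower (0.107%) in the Chinese breeds. A symbol was available for 15 of them. LRRC23, PDIA2, GBP1, TLL2, RABGGTA, SPIRE2 and TMEM35A were higher in the Chinese hearts, and SNCG, CLU, MTARC2, INPP5F, APOOL, MAMDC4, PDK1 and NAXD were lower. The values of the 2 groups did not overlap for any of the 28, against 343 genes (2.82%) without overlap among all genes tested. Of the 28, 17 had a mean below 5 scaled FPKM, and 23 differed by more than 1 on the log2 scale. In 9 of the 28 no Western heart reached 1 FPKM, and in 4 no Chinese heart did. These 13 met the filter only through the group in which they were high and had to differ. In SNCG, ENSSSCG00000028909 and ENSSSCG00000028998 just 1 heart of the low group reached 1 FPKM. These too met the filter through the group in which they were high. The higher count fell to 8 without Hampshire, 5 without Large White, 4 without Piétrain, 4 without Jinhua and 9 without Meishan, and the lower count to 6 without Piétrain, 7 without Jinhua and 7 without Meishan. Without both Large White and Jinhua the counts were 4 and 5. Of the 15 named calls, 14 could then be tested and 13 of them were lost, with adjusted p of 0.0723 to 0.2579, SNCG being the exception. Without the Berkshire heart the counts were 10 and 9, and 15 of the 28 calls remained.

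**Figure D1:**
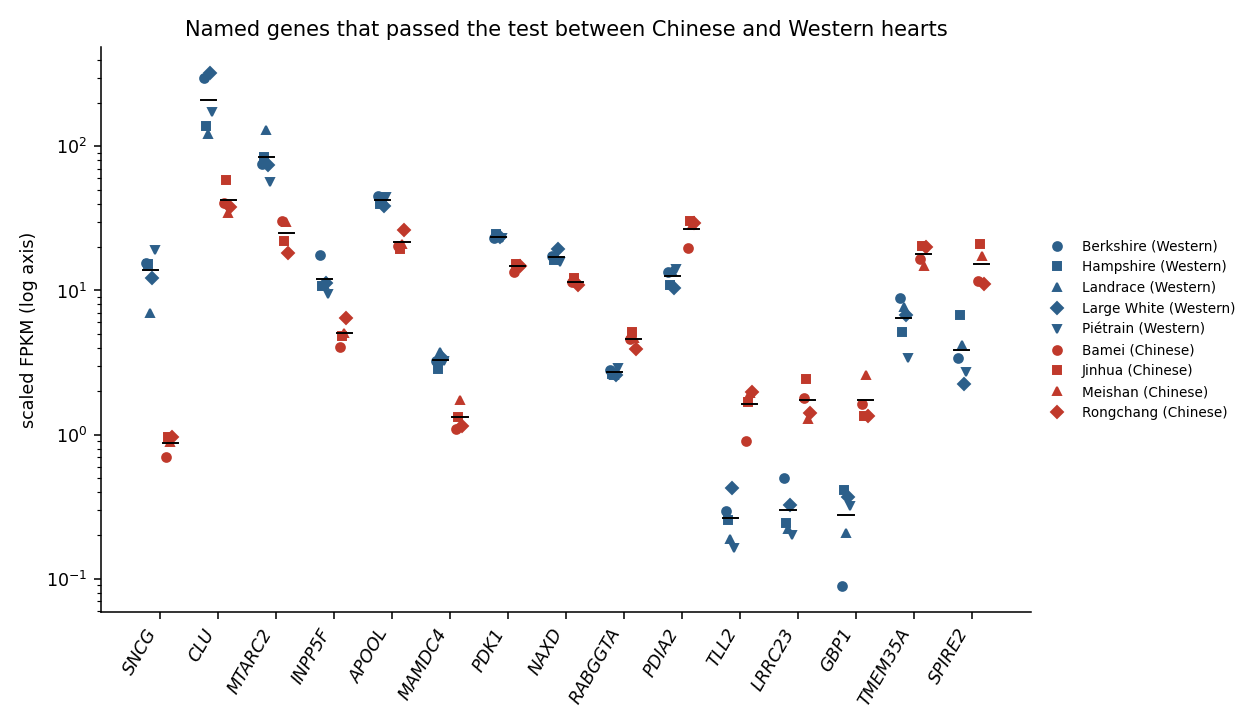
Scaled FPKM (log axis) of the 15 named genes that passed the test, ordered by log2 difference; each point is 1 heart library and black lines are group means. In every gene the 4 Chinese hearts (red) lie wholly above or wholly below the 5 Western hearts (blue).

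PDK1 (ENSSSCG00000015958) was lower in the Chinese hearts. It stood at 23.1 scaled FPKM in Berkshire, 24.7 in Hampshire, 23.6 in Landrace, 23.5 in Large White and 23.2 in Piétrain. In the Chinese hearts it stood at 13.4 in Bamei, 15.3 in Jinhua, 15.3 in Meishan and 14.8 in Rongchang. All 4 Chinese values lay well below the 5 Western ones, which spanned a narrow range. The difference was -0.65 ± 0.07 (log2, SE; 1.57-fold lower; limma adjusted p = 0.00807), and the exact permutation test over 126 splits, two-sided, gave p = 0.00794, the smallest it can give. Groups without overlap give a permutation p at or near this minimum, and the test was run on genes already chosen from these hearts. It is unadjusted and adds no separate evidence, for APOOL and SPIRE2 below as well. PDK1 passed limma after each of the 9 hearts was left out in turn. It did not pass without both Large White and Jinhua (-0.67, adjusted p = 0.115) or when the spread was pooled over all 83 single-tissue libraries (-0.62, adjusted p = 0.156).

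The other members of the pyruvate dehydrogenase list gave no call. The list had 12 tested members, of which 11 lay below 0, with a median of -0.15 against -0.00 over all genes tested. PDK4, the kinase induced by fasting and fatty acids, pointed the other way, at 109.8 to 331 scaled FPKM in Chinese hearts and 49.3 to 329 in Western hearts (1.00 ± 0.54, adjusted p = 0.752). The groups overlapped, because the Hampshire heart reached 329. PDK2, the broadly expressed kinase of heart, averaged 66.6 ± 17.5 (SD, n = 4) in Chinese and 67.1 ± 13.8 (SD, n = 5) in Western hearts, and PDK3 averaged 5.89 ± 1.94 and 5.99 ± 1.10. The subunit genes PDHA1, PDHB, PDHX, DLAT and DLD differed by -0.28 to -0.17, none past the test. The phosphatase PDP1, its regulator PDPR and the pyruvate carrier subunit MPC2 lay between -0.13 and -0.04.

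APOOL (ENSSSCG00000012459), which binds the mitochondrial lipid cardiolipin, was also lower in the Chinese hearts. It stood at 45.2 scaled FPKM in Berkshire, 39.6 in Hampshire, 43.5 in Landrace, 38.3 in Large White and 44.3 in Piétrain. The Chinese values were 20.3 in Bamei, 19.5 in Jinhua, 20.9 in Meishan and 26.2 in Rongchang. Rongchang was the highest of the 4 and still lay clearly under the lowest Western heart. The difference was -0.93 ± 0.10 (1.91-fold lower, limma adjusted p = 0.00807, exact permutation p = 0.00794). It passed after each single heart was left out, and missed the threshold without both Large White and Jinhua (-0.92, adjusted p = 0.0723).

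Of 14 tested members of the MICOS and cristae list, 12 lay below 0 (median -0.18) and APOOL alone passed. Its paralog APOO averaged 35.0 ± 4.04 scaled FPKM in Chinese and 41.1 ± 7.52 in Western hearts, with overlapping groups (-0.21 ± 0.15, adjusted p = 0.815). IMMT, the core scaffold of MICOS, differed by -0.07 ± 0.15, CHCHD3 by -0.04 ± 0.14 and MICOS13 by -0.09 ± 0.15. OPA1, the fusion GTPase that also keeps cristae narrow, differed by -0.21 ± 0.11, and the outer membrane partners SAMM50, MTX1, MTX2 and DNAJC11 by -0.26 to -0.15. ATPAF2, an assembly factor of ATP synthase, had the second largest difference of the list (-0.74 ± 0.27, adjusted p = 0.550). In the mean of the other 7 tissues ATPAF2 was lower in the Chinese breeds by -0.79 ± 0.10 (adjusted p = 0.00905).

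SPIRE2 (ENSSSCG00000002635) was higher in the Chinese hearts. The values were 11.7 scaled FPKM in Bamei, 21.1 in Jinhua, 17.4 in Meishan and 11.1 in Rongchang. The Western values were 3.38 in Berkshire, 6.79 in Hampshire, 4.16 in Landrace, 2.23 in Large White and 2.74 in Piétrain. Hampshire was the highest Western heart and lay under all 4 Chinese hearts. The difference was 1.77 ± 0.27 (3.41-fold higher on scaled FPKM + 1, limma adjusted p = 0.0393, exact permutation p = 0.00794). By the ratio of the group means of scaled FPKM it was 3.97-fold higher. SPIRE2 passed in only 1 of the 9 fits that left out a heart, the fit without Hampshire, and its adjusted p without the Berkshire heart was 0.0888. Its log2 difference stayed between 1.48 and 2.01 over the 17 alternatives run, and none of the other 20 tested actin nucleators passed (list median 0.03).

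Among the other genes lower in the Chinese hearts, SNCG showed the largest difference of those with a symbol that passed. SNCG encodes gamma-synuclein, a small protein of neurons and adipocytes. It stood at 15.6 scaled FPKM in Berkshire, 15.3 in Hampshire, 7.03 in Landrace, 12.3 in Large White and 19.1 in Piétrain. The Chinese hearts held 0.698 in Bamei, 0.962 in Jinhua, 0.885 in Meishan and 0.966 in Rongchang. On the scaled values no Chinese heart reached 1 and no Western heart fell under 7. As deposited, 1 Chinese heart reached the filter of 1 FPKM, so SNCG met it through the Western hearts. The difference was -2.92 ± 0.23 (limma adjusted p = 0.00142), and it passed in all 17 alternatives. SNCG sat in the neuron and glia list, of whose 8 tested members 5 lay above 0 (median 0.01) and the other 7 did not pass. BEX1 had the next smallest p (-1.35 ± 0.27, adjusted p = 0.144). The summed level of the list without SNCG was 10.3 to 17.6 scaled FPKM in Chinese and 14.3 to 24 in Western hearts, which overlapped. In bulk tissue, fewer cells of a type and less RNA per cell cannot be told apart.

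CLU, a secreted chaperone also called clusterin, was at 299.2 scaled FPKM in Berkshire, 138.3 in Hampshire, 122.5 in Landrace, 322.3 in Large White and 171.6 in Piétrain. The Chinese hearts held 40.6 in Bamei, 58.4 in Jinhua, 34.2 in Meishan and 37.8 in Rongchang. Western hearts varied widely, yet the lowest of them lay above the highest Chinese heart. The difference was -2.19 ± 0.31 (limma adjusted p = 0.0289). The call was lost in 6 of the 9 fits that left out a heart, with an adjusted p of 0.0539 without Berkshire. 

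MTARC2, a molybdenum enzyme of the outer mitochondrial membrane, was at 56.4 to 130.3 scaled FPKM in Western hearts, with Landrace the highest, and at 18.2 to 30.5 in Chinese hearts. The groups did not overlap (-1.68 ± 0.24, adjusted p = 0.0289), and the call was lost in 6 of the 9 fits that left out a heart, with adjusted p of 0.0552 without Berkshire and 0.1139 without Jinhua. NAXD, which helps repair damaged NADH and NADPH, was at 15.9 to 19.3 in Western and 10.9 to 12.2 in Chinese hearts (-0.53 ± 0.08, adjusted p = 0.0393). The other 2 named genes in this direction were INPP5F, a phosphoinositide phosphatase (-1.08 ± 0.17, adjusted p = 0.04999), and MAMDC4, an endosomal membrane protein of epithelia (-0.89 ± 0.11, adjusted p = 0.0130). NAXD passed in 0 and INPP5F in 1 of the 9 fits that left out a heart, while MAMDC4 passed in 7.

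Among genes higher in the Chinese hearts, PDIA2 encodes a protein disulfide isomerase of the endoplasmic reticulum. It was at 19.6 scaled FPKM in Bamei, 30.2 in Jinhua, 28.6 in Meishan and 29.2 in Rongchang, against 10.4 to 14.1 in the Western hearts (1.03 ± 0.15, limma adjusted p = 0.0289). Bamei was the lowest Chinese heart and still lay above the highest Western one. The call held in 1 of the 9 fits that left out a heart, the fit without Bamei. Outside heart, PDIA2 was found at more than 1 scaled FPKM in ovary alone, and no library of liver, spleen, lung, kidney, adipose or the 2 muscles exceeded 0.380.

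TMEM35A, a chaperone of nicotinic acetylcholine receptors, was at 14.9 to 20.3 scaled FPKM in Chinese and 3.39 to 8.93 in Western hearts (1.40 ± 0.22, adjusted p = 0.0490). RABGGTA, a subunit of the enzyme that attaches lipid anchors to Rab proteins, was at 3.93 to 5.17 and 2.58 to 2.91 (0.59 ± 0.09, adjusted p = 0.0340). Neither pair of ranges overlapped, and both calls held in 1 of the 9 fits that left out a heart. LRRC23, a component of cilia and flagella, TLL2, a secreted metalloprotease, and GBP1, an interferon-induced GTPase, were low genes, and no Western heart reached the filter of 1 FPKM for any of them. LRRC23 was at 1.29 to 2.43 in Chinese hearts and at most 0.504 in Western ones (1.06 ± 0.14). TLL2 was at 0.903 to 1.98 and at most 0.424 (1.04 ± 0.15), and GBP1 at 1.34 to 2.59 and at most 0.410 (1.08 ± 0.16). Their adjusted p values were 0.0289, 0.0340 and 0.0292, and they passed in 3, 1 and 0 of the fits that left out a heart. TLL2 did not meet the filter in the fits without Jinhua, Meishan or Rongchang.

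Among the 13 genes without a symbol, several reached 1 FPKM in 1 group alone. ENSSSCG00000026306 was listed at 0 in all 5 Western hearts and at 2.14 to 3.06 scaled FPKM in the Chinese hearts (adjusted p = 0.000248). ENSSSCG00000027743 was at 1.99 to 4.63 in the Chinese hearts and at 0 in the Western hearts other than Berkshire, which held 0.142. Both met the filter only through the Chinese hearts. The reverse held for those lower in the Chinese hearts, ENSSSCG00000012517, at 0.116 to 0.287 against 2.32 to 4.24, and ENSSSCG00000009512, at 0.263 to 0.693 against 1.93 to 2.68, which met it only through the Western hearts. In all, 3 of the 28 genes were listed at 0 in every Western heart, for which no fold is given, and none was listed at 0 in every Chinese heart.

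The next genes with a symbol by p-value did not pass. IRX6, a homeobox gene, had a difference of 1.13 ± 0.19 (adjusted p = 0.0596). PDE2A, the phosphodiesterase activated by cGMP, differed by 1.26 ± 0.22, GCNT3, a glycosyltransferase of mucins, by 0.96 ± 0.17, and ICE2 of the little elongation complex by 0.49 ± 0.09, each with an adjusted p of 0.0842. 

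Among the 44 gene lists, 43 had tested members, and 37 of these had no called member. The lists held 611 tested genes, of which 5 passed: PDK1, APOOL, SPIRE2, GBP1 and SNCG. That is 0.818%, with 0.23% of all genes tested. All lists were made with earlier results of these data known, PDK1, APOOL and SPIRE2 among them, so the higher share is not an independent result. The median difference over the listed genes was -0.03.

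**Figure D2:**
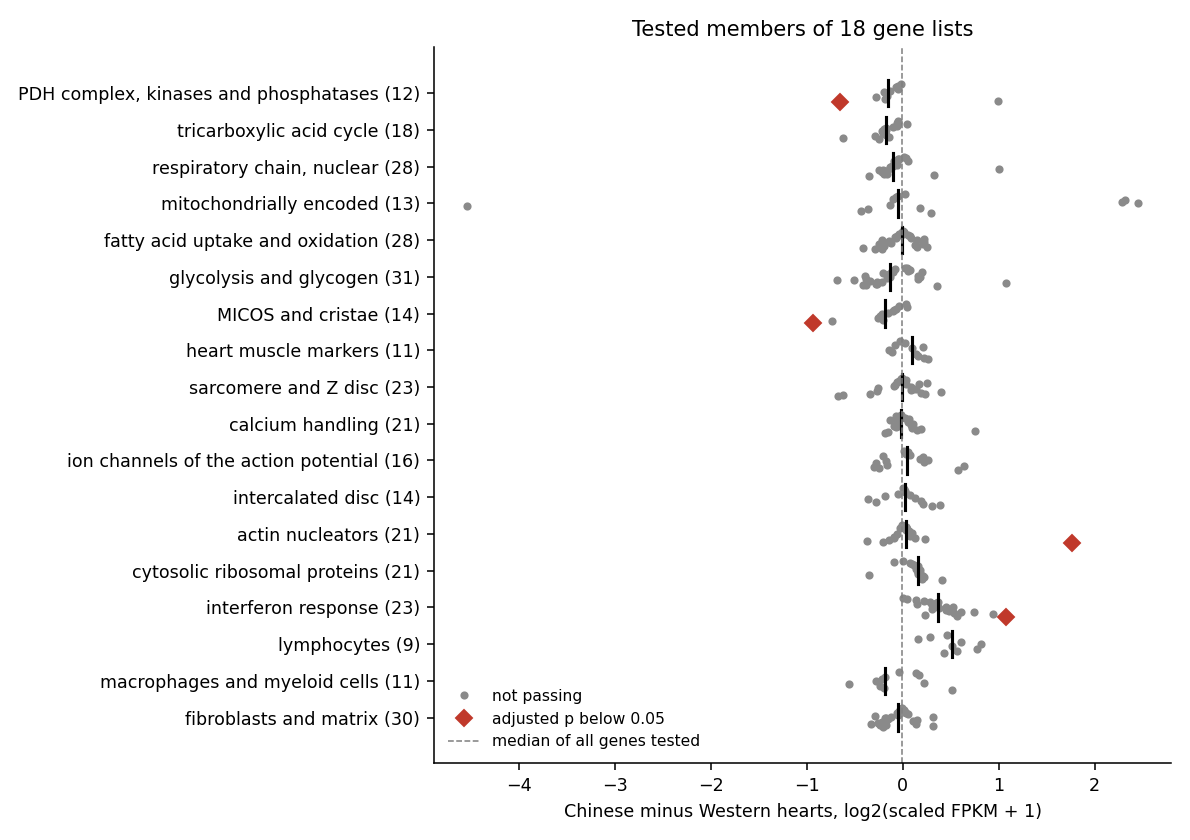
Log2 difference between Chinese and Western hearts for every tested member of 18 lists (number of members in brackets); black bars are list medians, the dashed line is the median over all genes tested and red diamonds mark genes that passed. PDK1, APOOL, SPIRE2 and GBP1 are the diamonds, and the interferon and lymphocyte members all lie above 0.

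The contractile and electrical genes of heart muscle showed no call. Of 11 heart muscle markers 7 lay above 0 (median 0.10), with MYBPC3, myosin-binding protein C, at 0.26 ± 0.17 and the transcription factor TBX20 at 0.22 ± 0.18. The 23 sarcomere and Z-disc genes were centred on -0.00 (11 above 0), and MYOT, a Z-disc protein, had the smallest p (-0.67 ± 0.23, adjusted p = 0.478). Calcium handling genes (21 tested) had a median of -0.02, and intercalated disc genes (14 tested) of 0.02. ABCC9, the regulatory subunit of the ATP-sensitive potassium channel of muscle and pericytes, was at 25.3 to 29.5 scaled FPKM in Chinese and 15.5 to 24.0 in Western hearts. Its groups did not overlap, but it missed the threshold (0.57 ± 0.13, adjusted p = 0.176).

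The other lists of energy metabolism had no called member, and several had most members below 0. In the tricarboxylic acid cycle 17 of 18 members lay below 0 (median -0.17), led by OGDH, which feeds succinyl-CoA (-0.25 ± 0.12, adjusted p = 0.691), and PC, pyruvate carboxylase (-0.62 ± 0.32, adjusted p = 0.722). Among nuclear respiratory chain genes 23 of 28 lay below 0 (median -0.10), and among glycolysis and glycogen genes 20 of 31 (median -0.13). Fatty acid uptake and oxidation was evenly split, 14 above and 14 below 0 (median -0.00). Members of a list were measured in the same 9 libraries and are not independent, so these counts describe the lists and test nothing. Among 13 mitochondrially encoded genes 7 lay below 0. COX1, ATP6, ATP8 and COX3 were listed at 0 in some hearts and were the least certain, with SE of 4.97 to 5.36 on the log2 scale.

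In the hypoxia response list PDK1 alone passed among 18 members. The other hypoxia-responsive genes included NDRG1 (-0.22 ± 0.09, adjusted p = 0.594), VEGFA (-0.31 ± 0.26) and LDHA (-0.50 ± 0.34), and the factors HIF1A and EPAS1 themselves differed by -0.08 ± 0.12 and -0.06 ± 0.11. The list median was -0.13. In adrenergic and angiotensin signalling the smallest p belonged to GRK5, a kinase that desensitises beta-adrenergic receptors. GRK5 averaged 15.3 ± 2.40 scaled FPKM in Chinese and 23.4 ± 3.75 in Western hearts (-0.58 ± 0.15, adjusted p = 0.2495).

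All 23 tested interferon response genes lay above 0 in the Chinese hearts (median 0.37), and GBP1 alone passed. The list's summed level was 248.7 to 1666 scaled FPKM in Chinese and 136.2 to 1241 in Western hearts, so the groups overlapped widely. The Meishan and Hampshire hearts stood highest. MX1, an antiviral GTPase, reached 166.3 in Meishan and 101.1 in Hampshire and lay at 6.83 to 47.0 in the other 7 hearts. All 9 lymphocyte genes lay above 0 as well (median 0.51), with summed levels of 11.5 to 61.3 and 8.77 to 41.4. CD3D, a subunit of the T cell receptor complex, was at 0.855 to 3.66 in Chinese and 0.518 to 2.60 in Western hearts (0.56 ± 0.33, adjusted p = 0.766). The part of lymphocyte numbers in the GBP1 difference was not tested. Macrophage and myeloid genes lay on the other side (7 of 11 below 0, median -0.18), and fibroblast and matrix genes had a median of -0.04.

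The same genes were then measured in libraries that the heart comparison had not used. In the mean of the other 7 tissues that all 9 breeds have (all but lung), 32 of the 12161 genes (0.263%) passed, 16 in each direction. Of the 28 heart genes, 16 passed there in the same direction, which is 57.1% of the heart calls and 50% of the calls in the other tissues, and 25 of 28 had the same sign. Among the 16, only APOOL, MAMDC4 and ENSSSCG00000017123 reached 1 FPKM in every heart. The rest met the filter of the hearts through the group in which they were high, so the 57.1% is not independent of that filter. Without spleen the mean of 6 tissues gave 32 calls, 15 higher and 17 lower, and the same 16 heart genes passed. The count of 16 higher fell to 8 without Large White, 7 without Piétrain, 8 without Jinhua and 10 without Bamei, Meishan or Rongchang. These libraries come from the same breeds as the hearts, and possibly from the same animals, so they repeat the comparison in other tissues and not in other pigs.

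**Figure D3:**
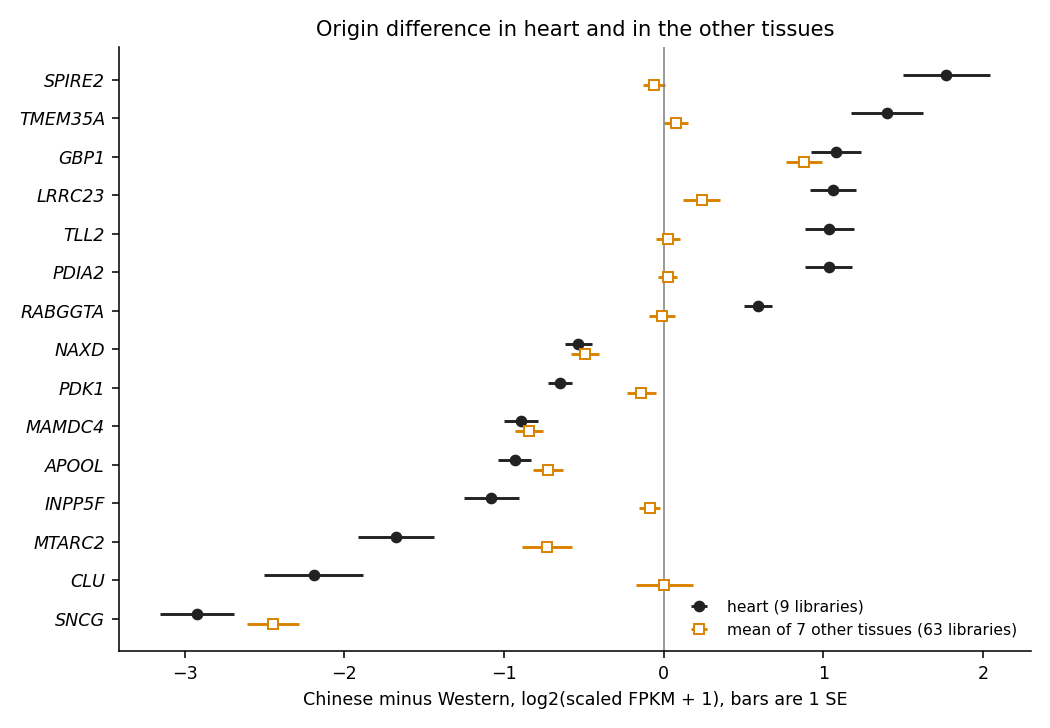
Chinese minus Western difference on log2(scaled FPKM + 1) with bars of 1 SE, for the 15 named genes: filled circles are heart, open squares the mean of 7 other tissues. SNCG, APOOL, MAMDC4, NAXD and GBP1 have similar values in both, and SPIRE2, CLU, TMEM35A, TLL2, PDIA2, RABGGTA and INPP5F lie near 0 in the mean of the other tissues.

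SNCG, APOOL, MAMDC4 and GBP1 passed in both. In the mean of 7 tissues SNCG differed by -2.45 ± 0.16 (adjusted p = 0.000427), MAMDC4 by -0.84 ± 0.09 (0.00336), GBP1 by 0.88 ± 0.11 (0.00905) and APOOL by -0.72 ± 0.09 (0.00950). Each kept its sign in all 8 other tissues, lung included, and its groups did not overlap in 7 of them; the exception was spleen, with the library labelled Berkshire. NAXD came close in the other tissues (-0.49 ± 0.09, adjusted p = 0.0689). Within tissues APOOL ranged from -1.09 in adipose to -0.48 in psoas major. SNCG ranged from -3.07 in adipose to -1.80 in spleen. Without the library labelled Berkshire the spleen difference was -2.27 ± 0.21 for SNCG, so that kidney (-2.20) was the smallest, and the groups of SNCG, APOOL, GBP1 and MAMDC4 did not overlap in spleen.

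For other genes the mean over the other tissues was nearer 0. For the genes given here except MTARC2, it averages tissues whose differences had both signs. The scale log2(scaled FPKM + 1) also holds differences near 0 where levels are low, which touches heart minus the other tissues as well. SPIRE2 was at most 1.39 scaled FPKM in liver, spleen, adipose and the 2 muscles, though higher in kidney, ovary and lung. PDIA2 was below 1 in every tissue but heart and ovary. SPIRE2 differed by -0.06 ± 0.07 in the mean of 7 tissues, CLU by 0.00 ± 0.18, PDIA2 by 0.02 ± 0.06, TLL2 by 0.02 ± 0.08, RABGGTA by -0.01 ± 0.08, TMEM35A by 0.08 ± 0.08 and INPP5F by -0.09 ± 0.07. Within single tissues INPP5F reached -0.63 in lung, without overlap, TMEM35A 0.62 in lung, TLL2 0.47 in ovary, and CLU -0.40 in adipose and 0.38 in psoas major. LRRC23 differed by 0.24 ± 0.12 in the mean and MTARC2 by -0.73 ± 0.16 (adjusted p = 0.161). LRRC23 reached 0.64 within a single tissue. Of the 8 other tissues, LRRC23 and TLL2 each had 1 in which the groups did not overlap, in the direction of heart. The difference between heart and the other tissues was tested per breed, and no gene passed (0 of 12161, 0%), with limma's trend and robust options or without them, and with spleen or without it. Leaving out Rongchang gave 3 higher and 1 lower, and leaving out Berkshire or Meishan gave 1 lower. At an unadjusted p below 0.05 there were 885 genes, 16 of the 28 among them. The lowest adjusted p among named genes was 0.102, for SPIRE2 (1.86 ± 0.28) and TLL2 (1.08 ± 0.16). The heart genes were chosen for their heart difference, so these values describe them and do not show that any difference belongs to heart.

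**Figure D4:**
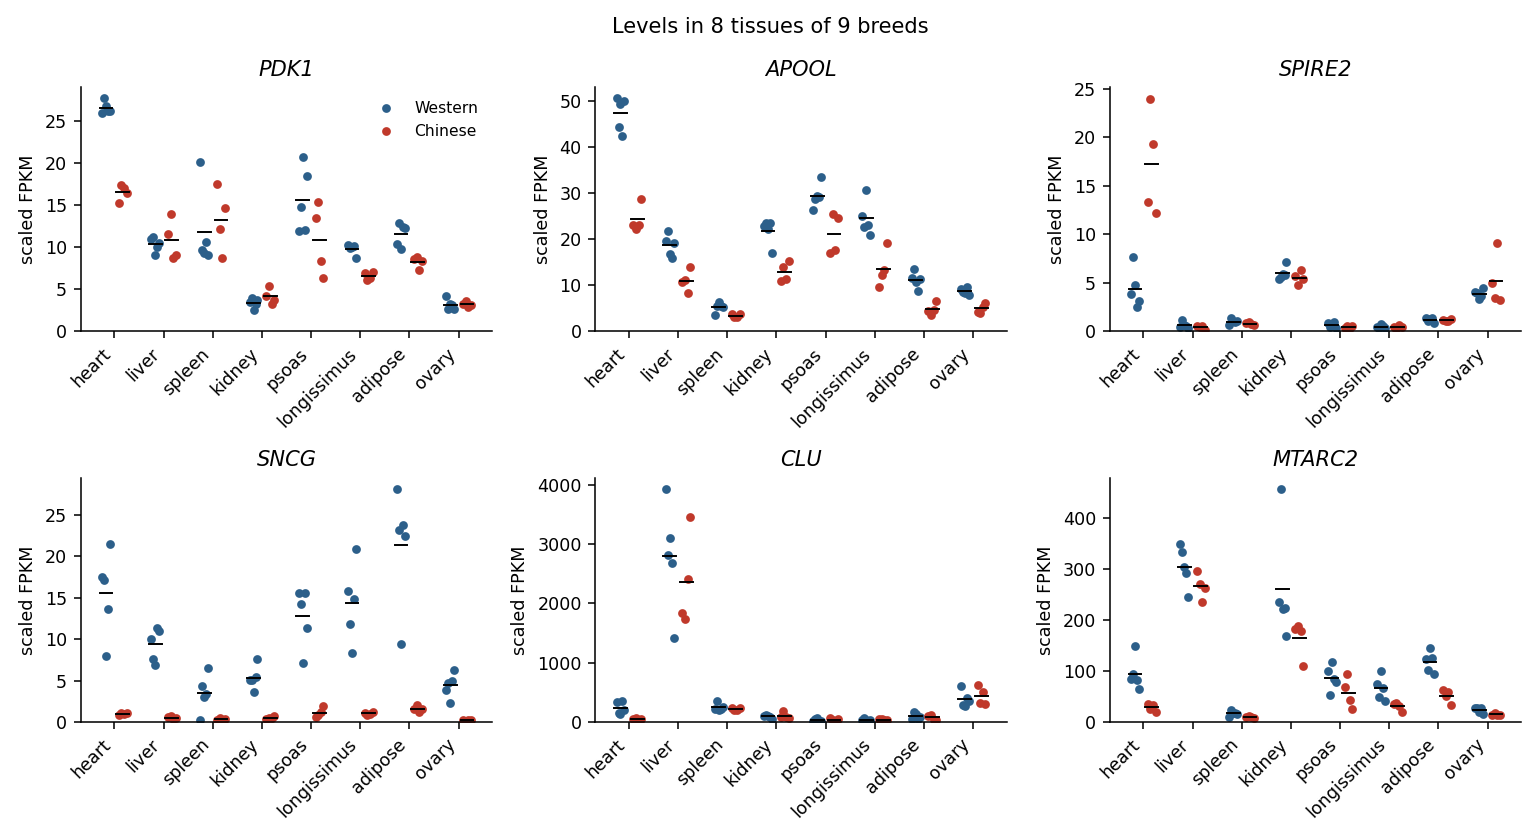
Scaled FPKM of 6 genes in 8 tissues, 72 libraries scaled together, so that heart levels differ slightly from those scaled among hearts alone; points are libraries (blue Western, red Chinese) and black lines group means. SPIRE2 separates the groups in heart alone among these tissues, while SNCG separates them in every tissue except for the spleen library labelled Berkshire.

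Among the 8 tissues scaled together, PDK1 had its highest mean level in heart in both groups, 26.5 ± 0.722 scaled FPKM in Western and 16.5 ± 0.928 in Chinese breeds. Next in Western breeds came psoas major (15.6 ± 3.91) and spleen (11.8 ± 4.70), whose libraries overlapped. Without the spleen library labelled Berkshire, which held 20.1, the spleen mean was 9.67 ± 0.687 (SD, n = 4), below adipose (11.5 ± 1.35) and liver (10.3 ± 0.867). In Chinese breeds spleen (13.2 ± 3.75), psoas major (10.9 ± 4.23) and liver (10.8 ± 2.46) followed and overlapped with each other, and the highest spleen and psoas major libraries reached the range of the hearts. Within tissues the PDK1 difference was -0.47 ± 0.11 in longissimus dorsi, -0.51 ± 0.25 in psoas major and -0.42 ± 0.11 in adipose, without overlap in longissimus dorsi and adipose. It was 0.04 ± 0.14 in liver, 0.24 ± 0.14 in kidney, 0.02 ± 0.13 in ovary, 0.23 ± 0.25 in lung and 0.19 ± 0.25 in spleen (0.39 ± 0.18 without the library labelled Berkshire). The sign thus followed heart in the 2 skeletal muscles and adipose and not in the other 5 tissues, and the mean of 7 tissues gave -0.14 ± 0.09 (-0.19 ± 0.09 without spleen).

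APOOL was likewise highest in heart, at 47.4 ± 3.68 scaled FPKM in Western and 24.3 ± 3.06 in Chinese breeds. Psoas major followed with 29.4 ± 2.58 and 21.1 ± 4.46, where the Chinese libraries overlapped with Chinese hearts. SPIRE2 had a different order. In Western breeds it was highest in kidney (5.97 ± 0.691), with heart (4.34 ± 2.01) and ovary (3.88 ± 0.442) overlapping below. In Chinese breeds heart was highest (17.2 ± 5.48), above every library of ovary (5.16 ± 2.71) and kidney (5.52 ± 0.647). No library of the muscles or liver exceeded 1.18. In lung, scaled on its own, SPIRE2 stood at 6.37 ± 0.867 (SD, n = 3) in Chinese and 6.29 ± 1.49 (SD, n = 5) in Western breeds, with overlapping groups.

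CLU was highest in liver, where plasma proteins are made, at 2795 ± 904.0 scaled FPKM in Western and 2364 ± 792.3 in Chinese breeds, with overlapping groups. Its heart level was 236.3 ± 103.0 and 48.1 ± 12.7. Heart was the only one of the 9 tissues examined in which the CLU groups did not overlap. MTARC2 was lower in Chinese breeds in all 9 tissues by value, from -1.68 ± 0.24 in heart and -1.19 ± 0.20 in adipose to -0.18 ± 0.13 in liver, where its mean level was the highest of the 8 tissues scaled together in both groups. Its groups did not overlap in heart, adipose and longissimus dorsi. Without the library labelled Berkshire they did not overlap in spleen either (-0.89 ± 0.17).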

How the data were processed

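RNA was measured in 92 pig libraries, of which 9 were hearts. Per the submitters' processing notes, TopHat and Cufflinks 2.2.1 were run on Sscrofa10.2. The authors deposited the values as FPKM for 25322 gene IDs; that the unit is FPKM follows from the tool and the values. The annotation release, strand setting, options and filters are not given in the sources used here, so overlapping genes cannot be told apart. Absolute depth is unknown; relative depth of the hearts ran from 0.815 to 1.13. Symbols were matched by gene ID for 11804 IDs.

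FPKM were scaled by median ratios over the libraries of a fit. Genes reaching 1 FPKM in 3 hearts or more were analysed on log2(scaled FPKM + 1) with limma 3.58.1 (trend and robust options) in R 4.3.3, two-sided, with Benjamini-Hochberg adjustment over all 12161 genes and a call at an adjusted p below 0.05. For the other tissues, the mean log2 level per breed and heart minus that mean were fitted alike. Scripts were tested on simulated data. Named genes were the called genes with a symbol, the next by p up to 20, all members of the pyruvate dehydrogenase and MICOS lists, and per list up to 4 called members or the 2 with the smallest p; other list members named were chosen after their values were seen. The members and lists were chosen with earlier results of these data known. Of 1048 listed symbols 710 were matched; none of the sex-linked ones was, so the sex of the pigs was not checked. The alternatives without 2 libraries, without spleen and without the spleen library labelled Berkshire were chosen after seeing the data. Some genes that this rule selects are not reported here.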

Additional observations from a re-analysis of the deposited data

Results flagged for a closer look

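Within each group of 4 or 5 hearts, the highest or lowest library was compared with the rest by Dixon's criterion for 48 genes, and 7 of 96 groups passed it. The 96 include the Western hearts for ENSSSCG00000026306, which were all at 0 and could not be compared. For normally distributed values, chance flags about 1 in 20 groups. The criterion was applied to scaled FPKM without logarithms, for which that rate was not checked. In the Chinese hearts, PDIA2 was lowest in Bamei (19.6 scaled FPKM, next 28.6). The Berkshire heart was the highest Western library for INPP5F (17.7, next 11.3), IRX6 (0.652, next 0.202), PDE2A (0.719, next 0.154), MTX2, an import factor of the outer mitochondrial membrane (37.2, next 28.7), and ENSSSCG00000027743 (0.142, all others at 0). The Hampshire heart was the highest Western library for PDK4 (329, next 102.7). These extremes lay within their own group and none closed the gap between origins for a gene that had passed.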

How the results depend on the processing

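Counts of called genes depended on the settings, while the sign did not: each of the 28 heart genes kept its sign in every alternative in which it was tested. The count of genes higher in Chinese hearts (15) became 7 with a pseudocount of 0.1, 1 with a filter at 5 FPKM, 77 with the spread pooled over 83 libraries and 4 without Large White and Jinhua, and ran from 4 to 12 when each heart was left out. The count of lower genes (13) became 6, 67 and 5 under the last 3 of these settings and ran from 6 to 11. In the other tissues, the filter at 5 FPKM gave 1 higher and 5 lower, and leaving out a breed gave 7 to 12 higher and 13 to 19 lower. For heart minus the other tissues, leaving out a breed gave 0 to 3 higher and 0 to 1 lower. The cause of these shifts was not tested, beyond the fewer genes tested at 5 FPKM (7446) and the fewer libraries. SNCG passed in 17 of 17 alternatives, APOOL in 16, PDK1 in 15, and TMEM35A and INPP5F in 2. Uncalled genes near 0 turned sign: PDK2 was 0.0089 with FPKM as deposited and 0.018 in the pooled fit, and CHCHD10 was -0.098 and OMA1 -0.10 without Large White and Jinhua. When each heart was left out, PDK2 ran from -0.18 to 0.084, PDK3 from -0.22 to 0.077, PDP1 from -0.091 to 0.0074, PDPR from -0.20 to 0.0092, MPC2 from -0.17 to 0.070, IMMT from -0.14 to 0.022, CHCHD3 from -0.11 to 0.049, MICOS13 from -0.18 to 0.017, CHCHD10 from -0.046 to 0.15 and OMA1 from -0.095 to 0.14. No paired analysis was possible because each breed gave 1 heart and belongs to 1 origin, so the groups share no breed. Without read counts the error of a low value is unknown, which touches the 17 called genes with a mean below 5 scaled FPKM.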

Other observations

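Tibetan wild boar, a Chinese pig without a heart library, entered no comparison between groups above, but its 3 libraries were among the 83 in the fit with the pooled spread. Its SNCG level, in FPKM as deposited, was 2.26 in spleen, 4.40 in longissimus dorsi and 3.53 in psoas major. APOOL was at 4.24, 6.30 and 6.03 in the same order, GBP1 at 5.95, 0.460 and 0.379, MAMDC4 at 3.16, 2.33 and 1.85, PDK1 at 14.4, 9.14 and 9.60, and SPIRE2 at 0.491, 0.115 and 0.0872. In the 4 Chinese breeds with a heart, scaled SNCG was at 0.183 to 0.459 in spleen, 0.823 to 1.23 in longissimus dorsi and 0.619 to 1.95 in psoas major. In the Western breeds it was at 8.28 to 20.9 in longissimus dorsi and 7.17 to 15.6 in psoas major. The Tibetan wild boar values, on another scale, lay above these Chinese ranges in all 3 tissues and below the Western ranges in both muscles. Tibetan wild boar had 1 library per tissue, so no spread can be given.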
